A study of Mus musculus with 12 samples.

Results

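The genes described here encode the proteins of the cytosolic ribosome. They were chosen by symbol alone, as the rows of both deposited gene tables whose mouse symbol starts with Rpl or Rps, runs on as a ribosomal protein number or as stalk protein p0, p1 or p2, and is not an Rps6k kinase. The rule found 77 of the 17285 genes, 45 of them named for the large subunit and 32 for the small one. No measured value entered the choice.

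The RNA came from #781, a line grown from a melanoma of a Tyr-CreERT2; BRAF V600E mouse on the C57BL/6 background, in which Cre is driven by the promoter of the pigment cell gene Tyr. All samples share this origin. Nfe2l2, which encodes the oxidative stress transcription factor NRF2, was wildtype in 1 arm and knocked out with CRISPR in the other. The 12 samples fall into 4 groups of 3, namely cell lines, Nfe2l2 wildtype, cell lines, Nfe2l2 knockout, tumors, Nfe2l2 wildtype and tumors, Nfe2l2 knockout. The tumors grew from a single set of control and knockout cells placed under the skin of immunocompetent C57BL/6 mice aged 6 to 7 weeks, so genotype and the set of cells cannot be told apart, and whole tumors were taken, host cells included. The values used are 1 number per gene and table, the authors' log2 CPM (read counts scaled to a common library total, on a log2 scale). It is called mean log2 CPM here and was read as covering the 6 libraries of that table, so it averages both genotypes. Off the log scale all genes sum to 1008356 in the cell lines and 1008842 in the tumors. The lowest value counted once per gene gives 8346 and 8589. The value thus looks like the log2 of an average CPM plus a constant, not an average of log2 values. In such a value the genotype with the higher level weighs more. The value carries no SD and no replicate check, the depth of the libraries is unknown, and nothing here compares knockout with wildtype. Nfe2l2 itself stood at a mean log2 CPM of 7.70 in the cell lines and 8.25 in the tumors, which, as a mean over both genotypes, is no check of the knockout.

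A ribosome is built from 2 subunits, each made of ribosomal RNA and a fixed set of proteins present, with few exceptions, in 1 copy each. The small subunit reads the messenger RNA and the large subunit joins the amino acids. The P stalk of the large subunit, made of Rplp0, Rplp1 and Rplp2, draws in the elongation factors. Messenger RNAs of ribosomal proteins begin with a terminal oligopyrimidine tract (TOP), a C followed by a run of C and T, through which mTOR signaling adjusts their translation. Their short, abundant transcripts have also been copied back into the mouse genome many times as processed pseudogenes, which lack introns and resemble the spliced messenger RNA. Rapidly growing tumor cells are known for a high demand for ribosomes.

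RefSeq starts (GRCm38.p6) could be matched to 55 of the 77 members, with 64 windows of 250 bases before to 50 after a start. A TOP start, counted as a C followed by at least 4 bases of C or T on the gene strand with the C within 5 bases of the start, was held by 27 of these 55 genes (49.1%), against 23.7% of the 10915 genes of the tables with a window and 21.2% of all 27025 genes. Searched on both strands, the GABP motif CCGGAAG was held by 24 members (43.6%), against 18.2% of the genes of the tables and 9.93% of all genes. The YY1 motif AAGATGGC was held by 4 members (7.27%), against 4.82% and 3.19%. The antioxidant response element TGACNNNGC, the sequence NRF2 binds, was held by 12 members (21.8%), against 16.7% and 14.0%. CCGGAAG read on the other strand begins with a C followed by 4 bases of C or T, so a GABP match near the start can also count as a TOP tract. A match describes the letters of the window and is not a bound site.

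The starts of 9 of the members with a TOP start are printed because they include members that differed between tumors and cell lines in both directions, the paralogs Rpl22l1 and Rps27l, and Rpl27a, which hardly differed. Each line runs from 40 bases before the RefSeq start to 20 bases from it on, 5′ to 3′ on the gene strand, with the pyrimidine tract in capitals.
Rps2 (chr17:24720023-24720082, + strand): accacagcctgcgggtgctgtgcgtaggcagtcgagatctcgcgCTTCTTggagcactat
Rplp2 (chr7:141447611-141447670, + strand): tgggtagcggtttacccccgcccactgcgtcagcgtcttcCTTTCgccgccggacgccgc
Rpl13a (chr7:45128726-45128785, - strand): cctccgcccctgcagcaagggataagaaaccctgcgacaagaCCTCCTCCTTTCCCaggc
Rps27 (chr3:90213629-90213688, - strand): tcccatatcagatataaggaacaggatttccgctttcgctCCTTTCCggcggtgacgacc
Rps24 (chr14:24490638-24490697, + strand): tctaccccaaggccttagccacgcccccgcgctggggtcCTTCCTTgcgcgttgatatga
Rpl34 (chr3:130730379-130730438, - strand): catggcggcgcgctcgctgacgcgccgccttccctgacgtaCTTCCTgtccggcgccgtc
Rpl22l1 (chr3:28805468-28805527, + strand): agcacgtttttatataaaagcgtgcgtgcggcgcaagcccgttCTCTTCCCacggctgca
Rps27l (chr9:66946046-66946105, + strand): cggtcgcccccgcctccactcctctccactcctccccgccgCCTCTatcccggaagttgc
Rpl27a (chr7:109519155-109519214, + strand): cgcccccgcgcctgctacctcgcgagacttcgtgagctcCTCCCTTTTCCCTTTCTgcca
The tracts run from 5 bases in Rplp2 and Rps27l to 17 bases in Rpl27a. Over the 27 genes with a TOP start the median difference between tumors and cell lines was 0.03 on the log2 scale, and over the 28 without it 0.07. With the C allowed within 25 bases of the start, a distance chosen after seeing the data, 47 of 55 members (85.5%) held a tract, against 61.1% of the genes of the tables, and the order of the medians turned, at 0.05 for the 47 genes with a tract and -0.07 for the 8 without.

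The ribosomal protein genes were among the abundant genes of both tables. Their mean log2 CPM had a median of 7.52 in the cell lines, against 4.11 over all genes, and of 7.60 in the tumors, against 4.30. In the cell lines 49 members, and in the tumors 50, lay in the top 10% of all genes, and 74 of 77 were above 5 in both tables. Together the members held 2.16% of all CPM in the cell lines and 2.06% in the tumors.

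Levels of different genes are compared per kilobase of exon, taking all annotated exons of a gene (GENCODE M21, GRCm38, the build of the authors' mm10). On this length the same 6 genes stood highest in both tables. Rplp1, a stalk protein, had a mean log2 CPM per kilobase of 10.75 in the cell lines and 10.52 in the tumors. Its stalk partner Rplp0, which anchors the stalk to the ribosome, followed with 10.01 and 9.54. Rpl8, which lies beside the site where peptide bonds form, stood at 9.81 and 9.20. The very small protein Rpl41 stood at 9.59 and 9.39, Rps15 of the small subunit head at 9.44 and 9.15, and Rpl4, which reaches into the exit tunnel for the new protein, at 9.30 and 9.34. The order depends on the length used. Divided by the main transcript instead, an alternative chosen after seeing the data, Rpl41 was first at 11.01 and 10.81, ahead of Rplp1 at 10.75 and 10.52, and Rps15 stood at rank 6 in the cell lines and 9 in the tumors and Rpl4 at rank 8 and 6. With no error on a mean, neighbors in this order cannot be ranked against their spread.

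Rplp2, the remaining stalk gene, has 2072 bases of exon in all but a main transcript of 421 bases, so its place turned on the length. By all exons it held rank 44 of 77 in the cell lines and rank 63 in the tumors, at 6.22 and 5.59 log2 CPM per kilobase, and by the main transcript rank 25 and rank 41, at 8.52 and 7.89. Rpl9, Rpl22l1, Rps19, Rps13 and Rpl39l were among the 6 lowest members of both tables by all exons. Rpl9 had 4.46 in the cell lines and 4.22 in the tumors, Rpl22l1 had 4.35 and 4.75, Rps19 had 4.14 in both, and Rps13 had 3.96 and 3.76. Rpl39l, a paralog of Rpl39 known in mice for its expression in male germ cells, was the lowest member of both tables at -0.78 and 0.95. By the main transcript Rpl39l and Rps13 were again among the lowest 6 in both tables, Rpl9 and Rpl22l1 each in 1 of them, and Rps19 in neither, at 7.03 in both. Reads of pseudogene copies, described below, are not part of these levels. In the cell lines Rpl9 had a mean log2 CPM of 6.09 alone and 9.42 summed with its copies. Rps13 had 5.39 alone and 8.90 with its copies, while Rpl22l1 and Rpl39l had no counted copy.

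**Figure D1:**
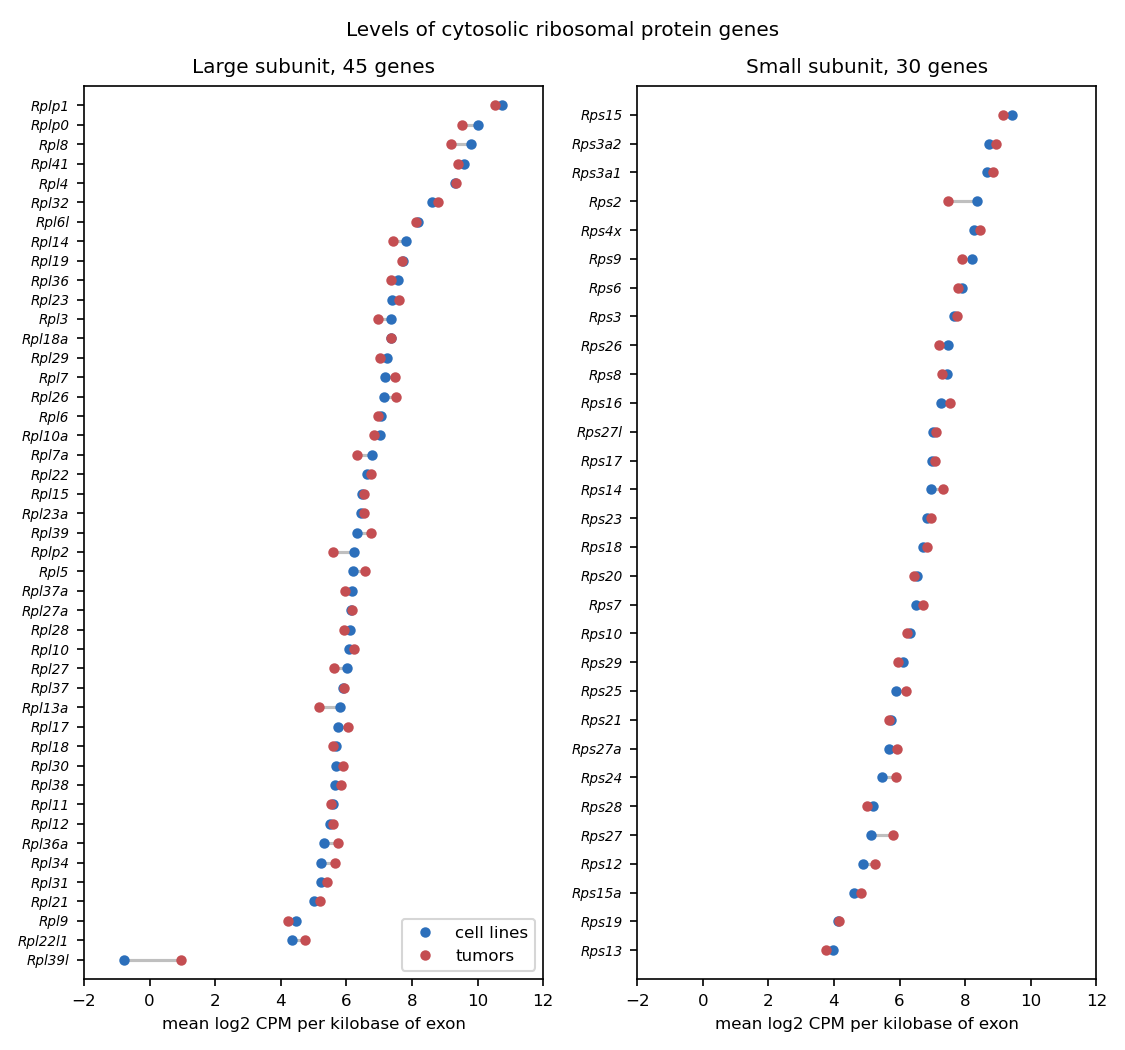
Mean log2 CPM per kilobase of exon (x axis) for 45 large and 30 small subunit genes (y axis, in the order of the cell lines), with blue points for the cell lines, red points for the tumors and a gray line joining them. Rplp1 lies highest at 10.75 and 10.52, and Rpl39l lies lowest in both tables.

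Although their proteins are built into the ribosome in fixed ratios, the members were spread widely in level. This is the spread of the values as counted, without the pseudogene copies described below, and need not be that of the transcripts. The SD of the mean log2 CPM per kilobase over the 77 members was 1.72 in the cell lines and 1.62 in the tumors, and 1.50 and 1.48 without Rpl39l and the 2 members annotated as pseudogenes. The large subunit median was 6.32 in the cell lines and 6.52 in the tumors, and the small subunit median was 6.78 and 6.91, which gives a difference, large minus small, of -0.46 and -0.38. In the cell lines this gap was -0.23 by coding length, -0.25 by the main transcript and -0.16 with no division by length. These gaps are small beside the spread within each subunit.

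Symbols that end in l or l1 name relatives of another member, and the set holds Rpl22l1, Rpl39l, Rpl6l and Rps27l. Rps27l, which p53 activates in human cells, stood above its parent per kilobase as counted, at 7.02 in the cell lines and 7.11 in the tumors, against 5.13 and 5.80 for Rps27. Almost all stretches of the Rps27 sequence, 98.6%, occur in other genes, against 22.4% for Rps27l. How reads of shared stretches were counted is unknown, so the order of Rps27l and Rps27 is uncertain. Rpl22l1 stood below Rpl22, at 4.35 and 4.75 against 6.63 and 6.77. Of the stretches of Rpl22l1, 65.6% occur in other genes, against 24.5% for Rpl22. In mice Rpl22 is known to hold down Rpl22l1. Rpl39l, at -0.78 and 0.95, was far below Rpl39, at 6.32 and 6.75. For Rpl6l and Rpl6 the order turned with the length. By all exons Rpl6l stood above, at 8.18 and 8.12 against 7.04 and 6.95, and by the main transcript below, at 8.18 and 8.12 against 8.35 and 8.26.

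The coding sequences show how far apart these pairs are. Rps27 and Rps27l share 192 of 252 coding bases (76.2%) and Rpl39 and Rpl39l share 130 of 153 (85.0%). Both pairs align without a gap and are printed whole, without the stop codon, from GENCODE M21 with each gene's GRCm38 position, with the differing bases in capitals.
Rps27 (chr3:90212522-90213651, - strand): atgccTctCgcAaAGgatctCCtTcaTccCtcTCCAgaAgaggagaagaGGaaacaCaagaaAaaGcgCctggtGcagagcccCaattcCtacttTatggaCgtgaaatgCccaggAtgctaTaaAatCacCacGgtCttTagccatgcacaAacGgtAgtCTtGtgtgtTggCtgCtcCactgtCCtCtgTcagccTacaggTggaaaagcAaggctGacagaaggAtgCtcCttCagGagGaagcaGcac
Rps27l (chr9:66946086-66949516, + strand): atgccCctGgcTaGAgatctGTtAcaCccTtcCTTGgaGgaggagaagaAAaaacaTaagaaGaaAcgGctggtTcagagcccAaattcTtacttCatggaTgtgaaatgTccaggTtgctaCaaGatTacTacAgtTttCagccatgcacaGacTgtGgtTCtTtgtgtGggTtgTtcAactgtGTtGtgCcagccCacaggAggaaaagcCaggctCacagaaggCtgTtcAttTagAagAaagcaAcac
Rpl39 (chrX:37082520-37085402, - strand): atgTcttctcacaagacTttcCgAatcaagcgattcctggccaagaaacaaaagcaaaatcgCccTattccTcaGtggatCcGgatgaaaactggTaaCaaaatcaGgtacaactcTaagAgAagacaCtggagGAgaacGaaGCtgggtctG
Rpl39l (chr16:10170226-10174911, + strand): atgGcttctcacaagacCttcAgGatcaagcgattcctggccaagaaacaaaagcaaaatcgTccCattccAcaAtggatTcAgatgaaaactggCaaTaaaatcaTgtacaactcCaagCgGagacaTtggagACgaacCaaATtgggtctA
Rpl22 and Rpl22l1 share 260 of 365 aligned coding bases (71.2%). Rpl6l is a different kind of relative. It is annotated as a processed pseudogene on chromosome 10 and shares 860 of 871 aligned bases (98.7%) with the coding sequence of Rpl6. The first 120 of those bases, where only 2 differ, are printed with the differences in capitals.
Rpl6 (chr5:121204481-121209241, + strand): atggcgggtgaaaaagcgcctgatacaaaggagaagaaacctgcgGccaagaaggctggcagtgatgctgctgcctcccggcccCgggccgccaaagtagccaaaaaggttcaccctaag
Rpl6l (chr10:111125851-111126721, + strand): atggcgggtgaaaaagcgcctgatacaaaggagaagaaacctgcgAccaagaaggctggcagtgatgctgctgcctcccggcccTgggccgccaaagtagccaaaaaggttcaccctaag
Rps3a2, also annotated as a processed pseudogene, on chromosome 14, shares 788 of 792 bases (99.5%) with the coding sequence of Rps3a1, and their levels were close, at 8.72 and 8.94 per kilobase for Rps3a2 and 8.66 and 8.84 for Rps3a1. The other 75 members are protein coding in the annotation.

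Near-identical copies were a feature of most members. Each member's main transcript was cut into all its stretches of 50 bases, and for the median member 61.2% of these stretches also occur in a transcript of another gene. The share was 0% for Rpl39l, under 10% for 5 members in all, over 50% for 49 members, and 98.6% for Rps27. A read of such a stretch fits more than 1 gene, and how the authors' counting placed it was left unstated by the sources used here, so the split of counts between a member and its copies is uncertain.

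Apart from the members Rpl6l and Rps3a2, the tables hold 238 processed pseudogenes that contain at least 10% of the stretches of a member. Each was counted for the member with the largest share, and these copies belong to 61 of the 77 members. The copies held more counts than the genes themselves. In the cell lines they summed to 2.56% of all CPM, against 2.16% for the members, and in the tumors to 2.55% against 2.06%. For 40 members the copies together exceeded the gene in the cell lines, and for 40 in the tumors. Rps13 held 8.78% of the CPM of its family in the cell lines, and Rpl9 held 9.95%, while Rplp0, with 1 copy, held 69.5%.

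The pair Rps2 and Rps2-ps13 shows how alike such sequences are. The pseudogene on the X chromosome shares 872 of 879 aligned bases (99.2%) with the coding sequence of Rps2, and 58.0% of the stretches of Rps2 occur in it. The first 120 coding bases of Rps2 are printed beside the pseudogene, with the 2 differing bases in capitals.
Rps2 (chr17:24718116-24721929, + strand): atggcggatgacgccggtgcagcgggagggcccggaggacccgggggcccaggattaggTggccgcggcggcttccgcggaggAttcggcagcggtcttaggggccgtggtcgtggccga
Rps2-ps13 (chrX:52898588-52899469, + strand): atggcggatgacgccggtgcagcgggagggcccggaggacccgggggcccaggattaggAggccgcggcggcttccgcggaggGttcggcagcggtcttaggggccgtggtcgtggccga
Rps2-ps13 had a mean log2 CPM of 7.65 in the cell lines and 6.79 in the tumors. Rps2, a protein at the path by which messenger RNA enters the small subunit, had 9.25 and 8.35.

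Most of these copies moved with their gene between the tables. Of 237 copies above a log2 CPM of 1 in both tables, 221 differed between tumors and cell lines in the direction of their gene, the median gap between the 2 differences was 0.06, and the largest was 0.38. The correlation of the differences across these 237 pairs was r = 0.96, a description only, since copies of 1 gene share its sequence and may share its reads. All 20 copies of Rps2 were lower in the tumors, with differences from -0.96 to -0.64 against -0.90 for Rps2. The 14 copies of Rpl7a ran from -0.67 to -0.19 against -0.47, and the 12 copies of Rps12 from 0.26 to 0.59 against 0.36. Some pseudogenes named for a member were not among the counted copies, and not all of them moved with it. Rpl13a-ps1 differed by 0.32, against -0.63 for Rpl13a. Rpl36a-ps3 differed by -0.04 and Rpl36a-ps1 by 0.41, against 0.42 for Rpl36a.

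**Figure D2:**
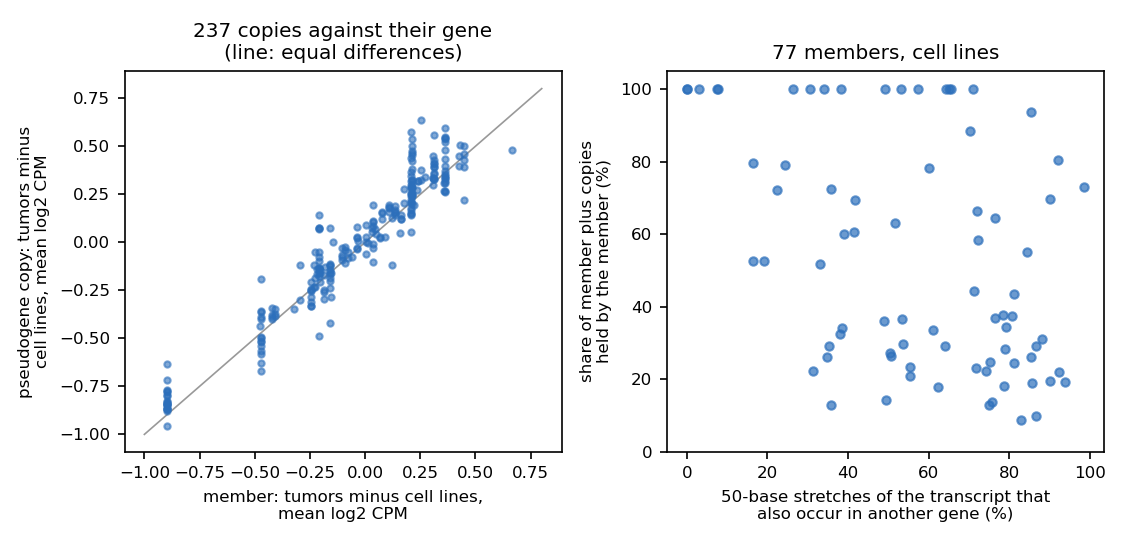
Left, the difference tumors minus cell lines in mean log2 CPM of 237 pseudogene copies (y axis) against that of their gene (x axis), with a gray line where both are equal; the copies of Rps2 lie at the lower left, from -0.96 to -0.64. Right, for the 77 members in the cell lines, the share of the CPM of a member plus its copies that the member holds (y axis, %) against the share of its 50-base stretches found in another gene (x axis, %). Members at 100% have no copy counted for them. Rpl6l and Rps3a2, being members, are not counted as copies.

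Between whole tumors and cultured cells most ribosomal protein genes lay close together. The median difference over the 77 members, tumors minus cell lines, was 0.05 on the log2 scale, against 0.10 over all 17285 genes and -0.08 over the 5925 genes above 5 in both tables. The tables were read as normalized separately, so these differences are given with no test. A shift of all genes of this size decides the sign of the group's median. Of the members, 43 were higher and 34 lower in the tumors, near the split of 9662 higher and 7623 lower over all genes. The interquartile range of the members' differences was -0.20 to 0.21, against -0.41 to 0.25 over the genes above 5. Within 0.5 of 0 lay 70 members, but the interquartile range of the genes above 5 also lies within 0.5 of 0. That count was not made over other genes, so it does not set the members apart. The SD of the difference was 0.39, against 0.59 over the genes above 5. The range and SD of the members cover all 77, Rpl39l included, of which 74 are above 5 in both tables. The sets are thus not quite alike. The order of the members was largely shared, with r = 0.97 between their log2 CPM in the 2 tables over 76 members without Rpl39l.

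More than 1 log2 unit lay between the tables for 2 members, with Rpl39l as the 1 that was higher in the tumors. Among all genes 16.6% were more than 1 higher in the tumors, against 1 of 77 members, and 3.96% were more than 1 lower, against 1 of 77 members. Low genes make up much of the first share. Of the 5925 genes above 5 in both tables, 3.95% were more than 1 higher and 4.05% more than 1 lower, against 0 of the 74 members above 5 in either direction. Rpl39l stood in the cell lines at -1.05, the lowest value of that table, which 523 genes share, and in the tumors at 0.69, so both levels were at the bottom of the scale and no fold is given.

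The abundant members that were lower in the tumors came from both subunits. Rps2 differed by -0.90, and 5.29% of all genes had a lower difference, against 11.9% for Rpl13a and 12.4% for Rpl8. Rpl13a, a large subunit protein that in human cells also takes part in silencing of inflammatory messenger RNAs, went from 6.88 in the cell lines to 6.25 in the tumors, a difference of -0.63. Of its exonic bases, 29.4% are shared with Gm45713, a protein coding gene that also has a row in the tables. Rpl13a spans chr7:45125558-45128761 on the minus strand. Rpl8 went from 10.25 to 9.64, a difference of -0.61, and only 7.86% of its stretches occur elsewhere.

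All 3 stalk genes were lower in the tumors, as were 3361 of the 5925 genes above 5 in both tables. Rplp2 went from a mean log2 CPM of 7.28 in the cell lines to 6.65 in the tumors, a difference of -0.63. Rplp0 went from 10.75 to 10.27, a difference of -0.48, and its single copy differed by -0.44. Rplp1 went from 9.74 to 9.51, a difference of -0.23. Of all genes, 11.9% had a lower difference than Rplp2, 17.7% a lower one than Rplp0 and 30.2% a lower one than Rplp1. Rpl7a and Rpl3, which builds the site of peptide bond formation, were also lower, by differences of -0.47 and -0.42. Lower differences than these were held by 17.9% and 20.0% of all genes.

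Within the 77 members, those with the largest positive differences after Rpl39l also came from both subunits, although 23.8% of all genes had a higher difference than Rps27, and 31.6% a higher one than Rpl34. Rps27 went from 5.19 in the cell lines to 5.86 in the tumors, a difference of 0.67, with 1 copy at 0.48. Rpl34 went from 6.62 to 7.07, a difference of 0.45, with 5 copies between 0.22 and 0.50. Rps24, which is mutated in some patients with Diamond-Blackfan anemia, went from 8.12 to 8.55, a difference of 0.43. Rpl39, which lines the exit tunnel, went from 6.84 to 7.27, a difference of 0.43, and Rpl36a from 6.06 to 6.48, a difference of 0.42. The paralogs Rpl22l1 and Rps27l had differences of 0.40 and 0.09, and their parents Rpl22 and Rps27 had 0.14 and 0.67.

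**Figure D3:**
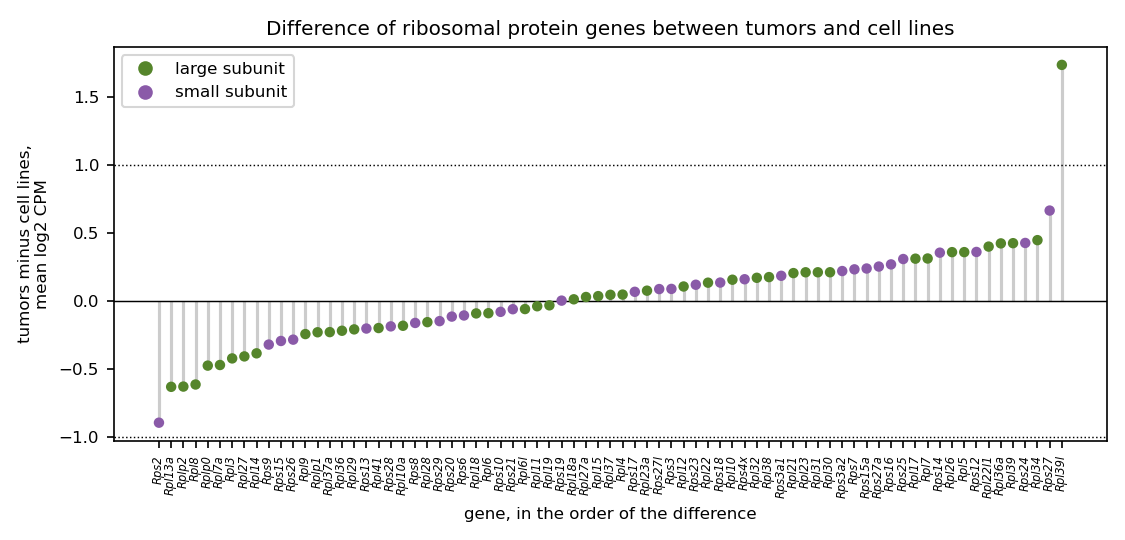
Difference tumors minus cell lines in the authors' mean log2 CPM (y axis) for 75 members (x axis, in the order of the difference), green for the large and purple for the small subunit, with dotted lines at 1 and -1. Rps2 lies lowest of those drawn at -0.90, and Rpl39l lies above the upper dotted line.

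Ribosomal proteins that the symbol rule does not reach were near the members. Rpsa, the small subunit protein also known as the laminin receptor, had a mean log2 CPM of 9.13 in the cell lines and 8.92 in the tumors. Rack1, a scaffold on the small subunit, had 10.40 and 10.17. Fau, which encodes a small subunit protein fused to a ubiquitin-like one, had 6.96 and 7.12, and Rpl36al, a retained copy of Rpl36a, had 7.14 and 7.13. Adding these 4 genes raised the share of all CPM to 2.37% in the cell lines and 2.25% in the tumors.

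Most of the genes that make ribosomes or drive translation had a lower mean in the tumors. Of 39 measured ribosome biogenesis genes, out of 40 listed, 37 were lower and 2 higher, with a median difference of -0.56, and 6 were more than 1 lower, against 3.96% of all genes. Among these, Ncl, the major nucleolar RNA-binding protein nucleolin, went from 10.76 to 9.71, and Mybbp1a, a nucleolar partner of RNA polymerase I, from 8.85 to 7.45. Of 28 measured translation factors, out of 30, 24 were lower and 4 higher, with a median of -0.34. Eef1a1, which brings transfer RNAs to the ribosome, went from 12.70 to 12.33, Pabpc1, the poly(A)-binding protein, from 10.83 to 9.78, and Tpt1, itself a TOP messenger RNA, from 9.80 to 10.37.

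Regulators of TOP messenger RNAs and the surveillance genes gave smaller lists. Of 11 regulators 10 were lower, with a median of -0.42. Larp1, which binds the TOP start, went from 8.96 to 7.98, and Eif4ebp1, the translation repressor under mTOR, from 8.73 to 7.86. Of 10 measured surveillance genes, out of 12, 6 were lower and 4 higher, with a median of -0.19. Trp53, the tumor suppressor p53, went from 7.52 to 6.37, while Mdm2, its inhibitor, which free Rpl5 and Rpl11 bind, went from 7.20 to 7.82. The 71 mitochondrial ribosomal protein genes, the parts of the separate ribosome in mitochondria, had a median of -0.23, with 55 lower and 16 higher. These counts stand beside 7623 lower and 9662 higher among all genes. Of the 5925 genes above 5 in both tables, 3361 were lower and 2564 higher. No test was made of any list.

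**Figure D4:**
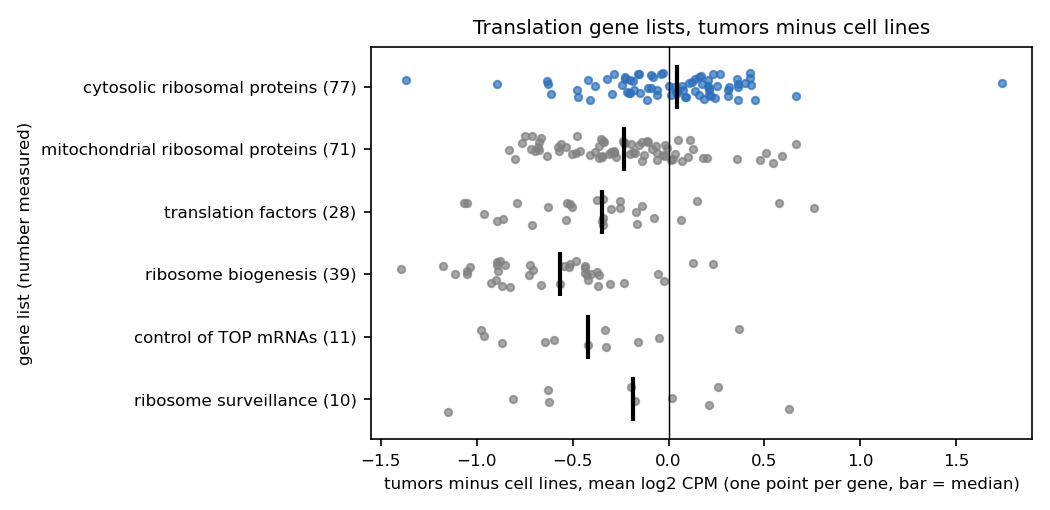
Difference tumors minus cell lines in mean log2 CPM (x axis) for the cytosolic ribosomal protein genes (blue) and 5 other translation lists (gray), 1 point per gene, with a black bar at each median; the number measured stands beside each list. The bar of the ribosomal proteins lies at 0.05 and that of ribosome biogenesis at -0.56.

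Markers of leukocytes, endothelium, red blood cells, fibroblasts and skeletal muscle were all higher in the tumors. The 13 measured leukocyte markers, out of 16, summed to 8.49 CPM in the cell lines and 997 CPM in the tumors. Endothelial markers (6 of 6 measured) summed to 3.74 and 164 CPM, red blood cell markers (4 of 5) to 1.97 and 365 CPM, fibroblast markers (8 of 8) to 3105 and 6869 CPM, and skeletal muscle markers (4 of 6) to 2.58 and 16.8 CPM. Most of the cell line sums other than that of the fibroblast markers are the lowest value of the table counted once per gene, which alone gives 6.28 CPM for the leukocyte, 2.90 for the endothelial and 1.93 each for the red blood cell and muscle markers. In the cell lines Lyz2, C1qa and the hemoglobin genes Hba-a1 and Hbb-bs stood at the lowest value of the table, and the fibroblast genes Col1a1 and Col1a2 at 9.70 and 10.31. Their part in the differences of the ribosomal protein genes was not tested, and in whole tumors fewer cells of a type and less RNA per cell cannot be told apart. Of 12 melanocyte markers 5 were measured, and 3 of these were more than 1 higher in the tumors. The pigment cell genes Pmel, at -0.31 and 0.05, and Oca2, at -0.11 and -0.13, were near the bottom of the scale in both tables. Mitf, the regulator of that lineage, had 2.67 in the cell lines and 4.23 in the tumors, and the receptors Ednrb and Kit went from -0.93 to 4.71 and from -0.83 to 2.51. In the cell lines 4 of the 5 thus stood below 1.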

How the data were processed

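RNA was purified with the RNeasy kit, poly(A) selected and made into libraries with NEBNext Ultra II RNA. The processing notes of the submitters list, without roles, mm10, Bowtie2 2.3.2, TopHat2 2.1.1 and FastQC. Annotation, counter and strand setting were not given in the sources used here. Per deposited table, of cell lines and of tumors, the authors gave 17285 genes, each with a mean log2 CPM, the unit used here. The other columns hold the authors' own comparison of knockout with wildtype (a log2 fold change, a p-value and an adjusted p-value) and were not used. Tests of the genotype were planned for single-sample values and were not made on these means. The members, lists and motifs were chosen with earlier results of these data known. Named genes are the paralogs and their parents, the stalk genes, the 6 highest and 6 lowest per kilobase in each table, the 6 largest differences in each direction, ribosomal proteins outside the symbol rule, and list members chosen after their values were seen. Rpl7a, Rpl3, Rps12, Rps3a1 and Rps3a2 were also chosen after their values were seen, as was Rpl27a. Some items, among them members counted but not named or drawn, are not reported here. Mitochondrial pseudogenes were left out of that list. A copy is a processed pseudogene, not itself a member, with at least 10% of a member's 50-base stretches. It is counted for the member with the largest share. Differences of more than 1 log2 unit were counted. Computations used Python 3.11.15 with pandas 2.3.3, numpy 2.4.6 and Biopython 1.88. The search for shared stretches, the motif search and the counting of differences were tested on simulated data. The alignments, gene lengths and exon overlaps were not.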

Additional observations from a re-analysis of the deposited data

How the results depend on the processing

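The median difference of the members, 0.05, changed sign to -0.0563 relative to the median of all genes (a shift of 0.10) and was 0.13 relative to genes above 5 in both tables (a shift of -0.08). It was 0.0363 without the paralogs, 0.0412 over members above 1 in both tables and 0.0424 with each member summed with its pseudogene copies, and rescaling both tables to the same total left it at 0.05. The number of members higher in the tumors was 33, 48 and 43 under these 3 scalings, against 43. The members' share of all CPM in the tumors, 2.06%, was 2.02% without the paralogs, 2.25% with the genes outside the rule and 4.60% with the copies; in the cell lines, 2.16%, it was 2.12%, 2.37% and 4.72%. The large minus small subunit difference per kilobase, -0.38 in the tumors, was -0.34 by coding length, -0.34 with no division by length and -0.32 by transcript length, and in the cell lines, -0.46, it was -0.23, -0.16 and -0.25. The order of the members per kilobase also changed with the length, for Rpl41, Rplp2, Rps19 and Rpl6 among others. The sums with copies, the limit of 50% shared stretches (0.05) and the transcript length were chosen after seeing the data. The alternatives for knockout against wildtype were not run, since no values of single samples were used. No paired analysis was possible because the columns used carry no replicate. Genes near the bottom of the scale, such as Rpl39l, are limited by an unknown depth.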
